A study of Mus musculus with 6 samples.

Results

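Glycolysis and the pentose phosphate pathway were followed through 34 genes in mouse bone marrow-derived macrophages (BMDMs) given IFN-γ. The genes were chosen by name, by matching the gene names in the deposited tables to a list of a glucose carrier, the glycolytic enzymes and their regulators, lactate dehydrogenases and lactate carriers, and the pentose phosphate enzymes. All 34 were among the 36706 entries listed, and 33 had enough counts to be tested. The study compared 3 libraries of wild-type BMDMs given IFN-γ for 3 h with 3 libraries of wild-type BMDMs left untreated, also labelled 3 h. Both groups were grown from bone marrow in M-CSF at 20 ng/mL with 10% serum, the medium having been renewed on day 3 and day 5, so every value describes M-CSF-grown macrophages. The labels give no dose of IFN-γ and do not say whether libraries came from separate mice or cultures, so p-values measure the spread between these libraries, which may be technical. In such bulk RNA, more cells of a kind and more RNA per cell cannot be told apart.

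Glycolysis breaks glucose down to pyruvate, which lactate dehydrogenase can turn into lactate for export. Hexokinase and phosphofructokinase-1 (PFK-1) are its early controlled steps, and fructose-2,6-bisphosphate, made and removed by the PFKFB enzymes, activates PFK-1. The pentose phosphate pathway leaves glycolysis at glucose-6-phosphate and supplies NADPH, which macrophages use in the oxidative burst and in handling oxidants, and ribose for nucleotides. Macrophages activated with interferon and microbial products are known for a shift towards glycolysis, and many steps are encoded by several isoenzyme genes, each of which can be set apart in these data.

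The libraries held 34233607, 32628170 and 33106160 counts with IFN-γ and 28133342, 28709235 and 31173432 counts when untreated. A floor of 3 counts corresponded to between 0.0890 and 0.101 CPM, the count scaled to library size with TMM factors, and such floors cover counting error only. All 10 macrophage markers examined, among them Adgre1, Csf1r and Cd68, were tested and present. Their summed level was 21759 to 22978 CPM with IFN-γ and 20300 to 21897 CPM when untreated. Most of that sum was Lyz2, at a mean of 15246 CPM with IFN-γ and 15487 CPM untreated, which was not called. Of the 10 markers, 5 were called higher (50%, against 19.6% of all genes tested). Neutrophil markers summed to 137 to 150.0 CPM with IFN-γ and 79.5 to 105 CPM when untreated. Of the 10, 7 were tested and 4 were called higher (S100a8, S100a9, Ngp and Ltf), 57.1% against 19.6% of all genes tested. The defining marker Ly6g had 2, 0 and 0 counts with IFN-γ and 0, 1 and 0 counts when untreated. Dendritic cell markers summed to 4.46 to 5.22 CPM with IFN-γ and 1.59 to 1.86 CPM when untreated. Of these 5, 4 were tested and 1, Xcr1, was called higher (25%, against 19.6% of all genes tested). Lymphocyte markers (at most 2.57 CPM with IFN-γ and 2.61 CPM untreated), erythroid markers (0.0966 to 0.261 CPM with IFN-γ, 0.296 to 0.399 CPM untreated) and stromal markers (15.8 to 21.0 CPM with IFN-γ, 11.1 to 15.3 CPM untreated) had no member called. Few of them had enough counts to be tested (1 of 10 lymphocyte, 0 of 6 erythroid and 2 of 7 stromal markers), so the lack of a call says little. The part of these cells in the results for the enzymes was not tested.

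After 3 h of IFN-γ, 1 glucose carrier gene, the 3 hexokinase genes, 1 PFK-1 gene and 1 PFKFB gene were higher, while most of the enzymes between aldolase and lactate dehydrogenase and most of the pentose phosphate enzymes were not called in either direction. By edgeR's quasi-likelihood test (adjusted p under 0.05), 9 of the 33 tested members rose: Slc2a1, Hk1, Hk2, Hk3, Pfkp, Pfkfb3, Pkm, Slc16a3 and Rpe. That is 27.3% of the tested members, against 19.6% of all 12968 genes tested. The 3 members that fell were Pfkfb2, Pfkfb4 and Eno2, which is 9.09% of the tested members against 16.8% of all genes. In either direction, 12 members were called, 36.4% of those tested and the same share as the 36.4% among all genes. Hk3, Pfkfb3 and Pfkp were called and at least 2 times higher, 9.09% of the tested members against 6.17% of all genes, and 0 were called and at least 2 times lower, against 1.94%. CPM ranges of the groups did not overlap for 11 members with IFN-γ above (33.3%, against 25.9% of all genes) and for 4 with IFN-γ below (12.1%, against 24.2%). The median log2 fold change was 0.05 over the tested members and -0.01 over all genes tested. The split of calls depended on how libraries were scaled. With upper quartile scaling, where the median log2 fold change of all genes was -0.16, 7 members were called higher and 6 lower, and with total counts, where that median was -0.18, 7 were called higher and 10 lower. Among all 12968 genes tested, 1803 were called higher and 4097 lower with upper quartile scaling, and 1666 higher and 4520 lower with total counts.

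**Figure D1:**
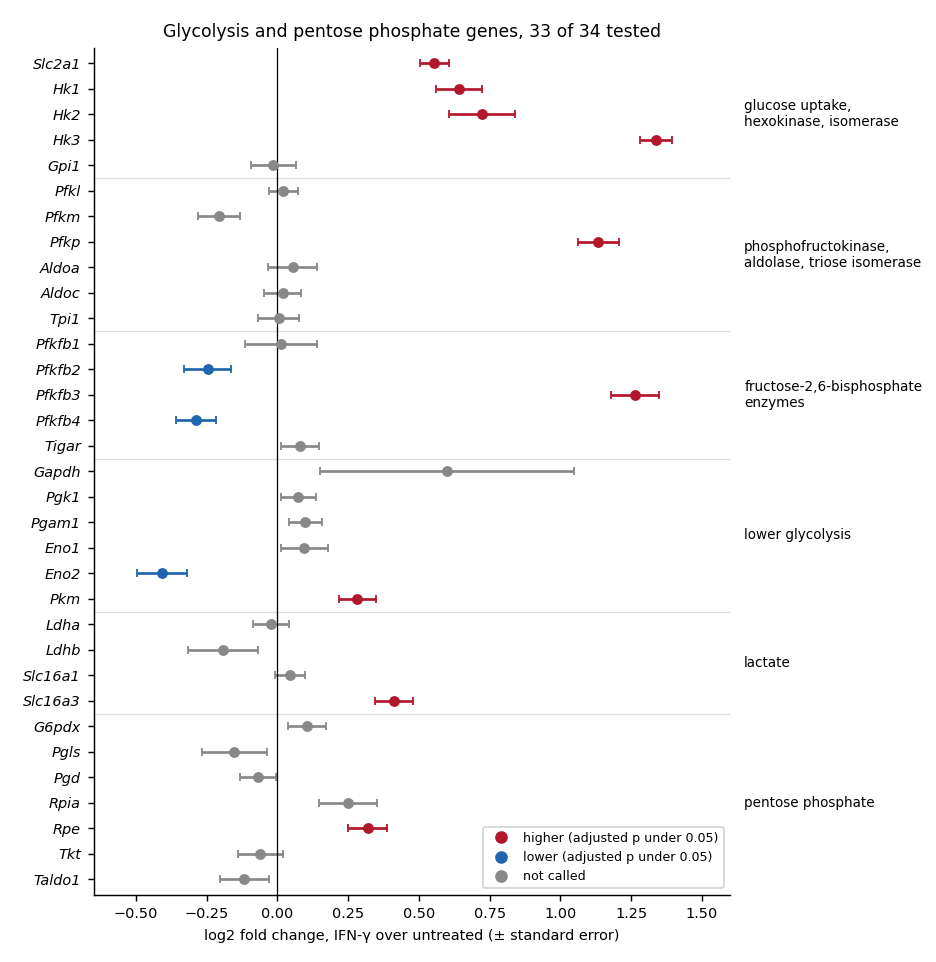
Log2 fold change (IFN-γ over untreated, x axis) of the 33 tested genes, with bars of 1 standard error from the edgeR fit, grouped by step of the pathway. Hk3, Pfkfb3 and Pfkp lie beyond 1, the genes called lower (Pfkfb2, Pfkfb4 and Eno2) lie between -0.25 and -0.41, and Gapdh has the widest bar.

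The promoter windows of the 3 members that were at least 2 times higher are shown first, with one of Ldha, a member that was not called but had several motif matches, and that of Rpe. Windows run from 250 bases before to 50 bases after a RefSeq start (GRCm38.p6), 5′ to 3′ on the gene's strand. All 34 members matched 52 windows by symbol. Capitals mark matches, on either strand, to the hypoxia response core ACGTG, which HIF-1 binds and which reads as CACGT on the other strand. In Rpe they mark instead a match to the interferon-stimulated response core GAAANNGAAA, which IRF factors bind and which reads as TTTCNNTTTC on the other strand. Positions are counted with the start as 1 and the base before it as -1. The windows are chr13:55021336-55021635 (minus strand) for Hk3, chr13:6648722-6649021 (minus) for Pfkp, chr2:11502041-11502340 and chr2:11553880-11554179 (both minus) for the windows 1 and 2 of Pfkfb3, chr7:46845554-46845853 (plus) for Ldha, and chr1:66700581-66700880 (plus) for Rpe.
Hk3: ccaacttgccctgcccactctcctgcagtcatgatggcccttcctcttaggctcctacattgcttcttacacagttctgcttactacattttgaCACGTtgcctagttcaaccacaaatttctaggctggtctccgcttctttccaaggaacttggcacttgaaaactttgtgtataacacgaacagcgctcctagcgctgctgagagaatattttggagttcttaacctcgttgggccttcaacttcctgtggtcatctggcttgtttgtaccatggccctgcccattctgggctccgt
Pfkp: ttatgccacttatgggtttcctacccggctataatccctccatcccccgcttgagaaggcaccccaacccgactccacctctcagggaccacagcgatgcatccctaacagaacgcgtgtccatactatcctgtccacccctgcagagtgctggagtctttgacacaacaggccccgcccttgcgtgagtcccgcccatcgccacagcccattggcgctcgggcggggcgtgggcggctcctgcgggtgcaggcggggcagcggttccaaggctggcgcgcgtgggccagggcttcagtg
Pfkfb3 window 1: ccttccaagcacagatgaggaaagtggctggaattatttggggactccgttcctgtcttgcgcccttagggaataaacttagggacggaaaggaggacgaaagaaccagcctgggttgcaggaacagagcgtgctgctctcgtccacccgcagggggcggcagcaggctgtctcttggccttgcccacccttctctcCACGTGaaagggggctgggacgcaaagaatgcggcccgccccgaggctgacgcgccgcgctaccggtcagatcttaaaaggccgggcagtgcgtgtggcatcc
Pfkfb3 window 2: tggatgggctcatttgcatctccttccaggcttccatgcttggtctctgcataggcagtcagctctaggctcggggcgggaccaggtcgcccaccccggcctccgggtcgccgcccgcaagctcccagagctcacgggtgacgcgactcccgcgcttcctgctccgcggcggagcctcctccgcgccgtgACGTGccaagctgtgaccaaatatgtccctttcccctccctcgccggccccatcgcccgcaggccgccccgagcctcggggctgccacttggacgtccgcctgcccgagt
Ldha: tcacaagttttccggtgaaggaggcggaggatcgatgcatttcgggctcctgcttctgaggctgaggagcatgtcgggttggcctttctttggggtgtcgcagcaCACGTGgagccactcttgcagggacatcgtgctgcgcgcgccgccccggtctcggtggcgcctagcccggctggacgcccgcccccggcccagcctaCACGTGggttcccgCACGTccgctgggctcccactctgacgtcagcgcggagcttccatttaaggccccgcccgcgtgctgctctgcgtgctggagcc
Rpe: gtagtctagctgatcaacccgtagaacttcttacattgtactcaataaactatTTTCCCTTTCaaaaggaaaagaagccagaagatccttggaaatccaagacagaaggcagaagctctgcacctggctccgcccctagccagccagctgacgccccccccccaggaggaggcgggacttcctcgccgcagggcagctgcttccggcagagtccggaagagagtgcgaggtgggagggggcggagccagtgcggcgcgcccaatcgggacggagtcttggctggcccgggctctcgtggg

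The hypoxia core was found in 21 of the 52 windows of members (40.4%), belonging to 17 members, and in 19.6% of all 32851 windows of this length. Member windows were also richer in G and C, with a median of 60.1% against 52.7% over all windows, and the part of base composition in the share was not tested. In Hk3 the match began at -156, and in window 1 of Pfkfb3 it lay inside CACGTG, the E-box, which reads the same on both strands and so holds a match on each, beginning at -53 and -52. Window 2 of Pfkfb3 had 1 match, at -60. No match to either motif stood in the Pfkp window. Matches were present in 7 of the 9 members that rose, 1 of the 3 that fell and 9 of the 21 that were not called, and Ldha, with 5 matches in its window (CACGTG counted on both strands), was among those not called. These counts take a match in any window of a gene. No such share was computed over all genes or over all genes called higher, so a link with the calls was not tested. Overlapping windows can also repeat a site, as windows 1 and 2 of Aldoa hold the same CACGT. The interferon-stimulated response core was in the window of 1 member, Rpe, at -197, and in 3.44% of all windows. A match describes the letters of the window and is no evidence of binding.

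The glucose carrier gene Slc2a1 and the 3 hexokinase genes rose. Slc2a1, which encodes the glucose carrier GLUT1, had 107, 108 and 106 CPM in the IFN-γ libraries, against 70.2, 73.2 and 74.7 CPM in the untreated libraries. The groups were far apart and tight, and the log2 fold change was 0.55 ± 0.05 (standard error of the fit, edgeR adjusted p = 7.53e-05). Hk1, the hexokinase of most tissues, had 141, 121 and 119 CPM with IFN-γ, against 81.6, 76.5 and 86.5 CPM untreated. Hk2, the hexokinase known for induction in activated and proliferating cells, had 98.0, 75.6 and 75.3 CPM with IFN-γ, against 53.4, 45.3 and 52.0 CPM untreated. For both genes every IFN-γ library was above every untreated one, with IFN-γ replicate 1 the highest. Hk1 rose by 0.64 ± 0.08 (edgeR adjusted p = 0.000452) and Hk2 by 0.72 ± 0.12 (edgeR adjusted p = 0.00169) on the log2 scale. Hk3, a hexokinase typical of myeloid cells, had 745, 731 and 712 CPM with IFN-γ, against 283, 285 and 297 CPM untreated. The lowest IFN-γ library was more than 2 times the highest untreated library. The log2 fold change of Hk3 was 1.34 ± 0.06, a 2.53-fold rise (edgeR adjusted p = 6.45e-07). Hk3 is also expressed in neutrophils, whose summed markers were higher with IFN-γ as given above, and their part in the rise was not tested. Gpi1, the isomerase that follows hexokinase, averaged 416 ± 41.6 CPM with IFN-γ and 421 ± 15.9 CPM untreated (SD, n = 3 each), and was not called.

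The balance among the hexokinases moved towards Hk3, which was already the major one. Divided by exon length, Hk3 made up 83.4%, 85.7% and 85.5% of the summed hexokinase CPM per kilobase with IFN-γ, against 77.2%, 79.0% and 77.5% untreated. Hk1 made up 9.54% ± 0.556 with IFN-γ and 14.2% ± 0.455 untreated, and Hk2 5.59% ± 0.679 with IFN-γ and 7.88% ± 0.583 untreated (SD, n = 3 each). Within each library the ratio of Hk3 to Hk1 was 8.20, 9.33 and 9.24 with IFN-γ, against 5.37, 5.76 and 5.31 untreated, and the groups did not overlap. The mean log2 ratio of Hk3 to Hk1 was 0.70 higher with IFN-γ and that of Hk3 to Hk2 was 0.62 higher (each exact permutation p = 0.1, two-sided, 0.16 adjusted over 16 isoenzyme pairs). With 3 libraries against 3, 0.1 is the smallest p this test can give. Hk2 to Hk1 differed by 0.08 with overlapping groups (exact permutation p = 0.4). The summed hexokinase level was 247 ± 8.81 CPM per kilobase with IFN-γ and 106 ± 3.33 untreated (SD, n = 3 each), 2.32 times as high (exact permutation p = 0.1, 0.175 adjusted over 7 steps).

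**Figure D2:**
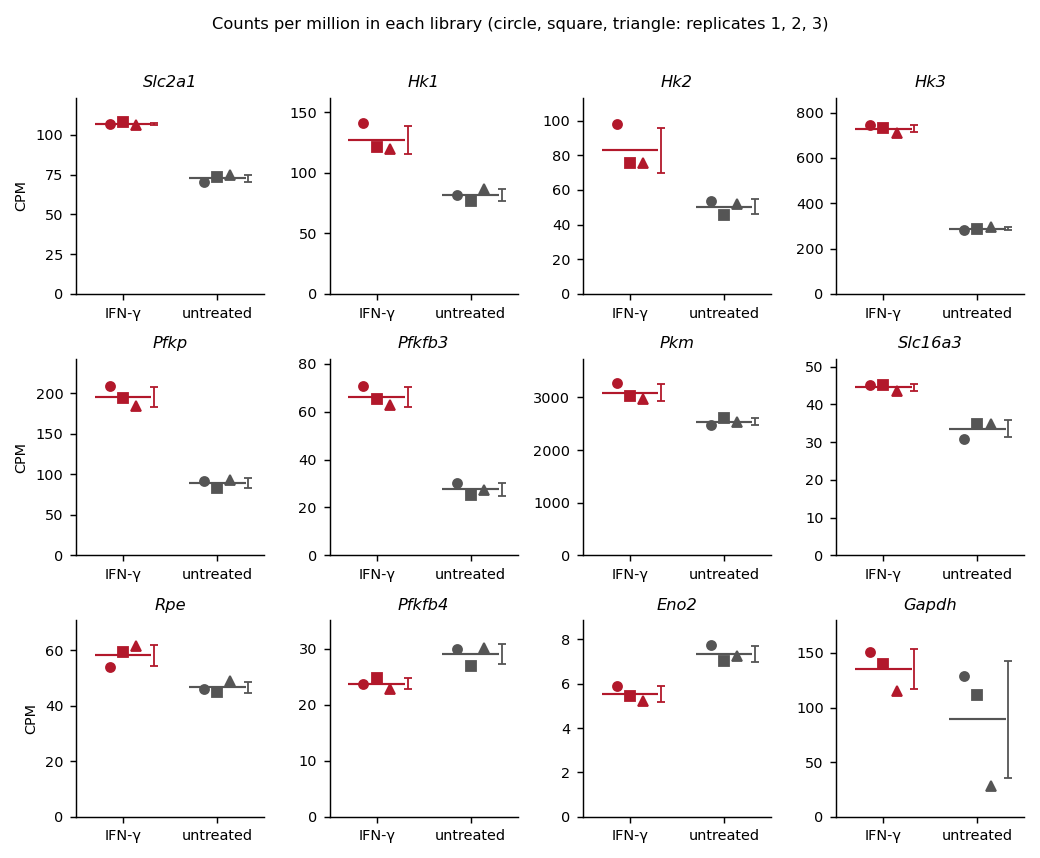
TMM-scaled CPM (y axis, from 0) of 12 genes in each library, with the mean (line) and SD (bar) of 3 libraries per group. Apart from Gapdh, the genes shown were picked from the called members (all but Pfkfb2), so the lack of overlap in 11 of the 12 panels goes with that choice. Groups did not overlap for 33.3% of the tested members with IFN-γ above and 12.1% with IFN-γ below, against 25.9% and 24.2% of all genes. In the Gapdh panel untreated replicate 3 stands at 28.3 CPM, far below the other libraries.

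Of the PFK-1 genes, which encode the liver (Pfkl), muscle (Pfkm) and platelet (Pfkp) types of the enzyme, 1 was called higher. Pfkp had 209, 194 and 184 CPM with IFN-γ, against 91.4, 82.7 and 93.5 CPM untreated. The groups were far apart, with IFN-γ replicate 1 again the highest. Its log2 fold change was 1.13 ± 0.07 (edgeR adjusted p = 7.90e-06). Pfkl had 47.4, 48.3 and 46.7 CPM with IFN-γ, against 46.7, 46.3 and 47.4 CPM untreated, groups that overlapped, with a log2 fold change of 0.02 ± 0.05. Pfkm had 9.55, 8.89 and 9.89 CPM with IFN-γ, against 10.8, 10.9 and 11.0 CPM untreated. All its IFN-γ values were below all its untreated values, but its log2 fold change of -0.21 ± 0.07 was not called (edgeR adjusted p = 0.0608). It was called lower with upper quartile scaling (-0.35, edgeR adjusted p = 0.00555) and with total counts (-0.38, edgeR adjusted p = 0.00486). The same held with a filter of at least 5 CPM in 3 libraries (-0.24, edgeR adjusted p = 0.0327). It held too with the trend on exon length removed (-0.19, edgeR adjusted p = 0.0485). In 13 of the 17 alternatives to the fit Pfkm stayed uncalled.

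Set against each other within a library, the PFK-1 genes changed places by one scale. Per kilobase of exon, the ratio of Pfkp to Pfkl was 1.53, 1.39 and 1.37 with IFN-γ, against 0.678, 0.618 and 0.684 untreated. Pfkp was thus above Pfkl in each IFN-γ library and below it in each untreated one, and the mean log2 ratio differed by 1.11 (exact permutation p = 0.1, 0.16 adjusted). The share of Pfkp in the summed PFK-1 level was 53.4% ± 1.51 with IFN-γ and 33.9% ± 1.30 untreated, that of Pfkl 37.4% ± 1.21 with IFN-γ and 51.4% ± 0.886 untreated, and that of Pfkm 9.14% ± 0.658 with IFN-γ and 14.7% ± 0.416 untreated (SD, n = 3 each). The order rests on the deposited lengths, 11760 bases for Pfkp and 4076 for Pfkl, which are those of all exons joined. As shares of counts, with no length, Pfkp led in both groups, at 77.4% with IFN-γ and 60.7% untreated. The log2 ratio of Pfkp to Pfkm was 1.34 higher and that of Pfkl to Pfkm 0.23 higher with IFN-γ, both without overlap (each exact permutation p = 0.1). Summed PFK-1 was 31.1 ± 1.08 CPM per kilobase with IFN-γ and 22.4 ± 0.610 untreated (SD, n = 3 each), 1.39 times as high (exact permutation p = 0.1).

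The enzymes that set fructose-2,6-bisphosphate moved in both directions. Pfkfb3, whose product has the highest ratio of kinase to phosphatase activity in the family, had 70.5, 65.2 and 62.6 CPM with IFN-γ, against 30.3, 25.1 and 27.2 CPM untreated. The groups were well apart, and the log2 fold change was 1.26 ± 0.08 (edgeR adjusted p = 1.04e-05). Pfkfb4, an isoenzyme known from testis and tumours, had 23.8, 24.7 and 22.8 CPM with IFN-γ, against 29.9, 27.0 and 30.2 CPM untreated. Its groups did not overlap, and the log2 fold change was -0.29 ± 0.07 (edgeR adjusted p = 0.0145), a call lost without IFN-γ replicate 3 (edgeR adjusted p = 0.0688) or without untreated replicate 3 (edgeR adjusted p = 0.0586). Pfkfb2, the heart type, had 20.1, 19.7 and 19.6 CPM with IFN-γ, against 25.2, 21.0 and 24.3 CPM untreated. Untreated replicate 2 lay close to the IFN-γ libraries, and the log2 fold change of -0.25 ± 0.08 (edgeR adjusted p = 0.0457) lost its call when any of the 3 IFN-γ libraries, untreated replicate 1 or untreated replicate 3 was left out, with edgeR adjusted p up to 0.133. Pfkfb1, the liver type, had 3.02, 3.35 and 3.80 CPM with IFN-γ, against 3.02, 3.48 and 3.56 CPM untreated, and was not called. Tigar, which removes fructose-2,6-bisphosphate, averaged 29.6 ± 1.62 CPM with IFN-γ and 28.0 ± 1.18 CPM untreated (SD, n = 3 each) and was not called. Fbp1, the gluconeogenic fructose-bisphosphatase, had 0, 1 and 0 counts with IFN-γ and 1, 0 and 1 counts untreated, which is under the floor in every library, and was the member not tested.

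Per kilobase of exon, Pfkfb3 was the major PFKFB gene with IFN-γ and Pfkfb4 the major one untreated. The Pfkfb3 share of the summed PFKFB level was 58.3%, 55.5% and 55.3% with IFN-γ, against 32.9%, 30.9% and 30.2% untreated. That of Pfkfb4 was 26.5% ± 0.945 with IFN-γ and 43.1% ± 0.735 untreated, and that of Pfkfb2 11.1% ± 0.256 with IFN-γ and 17.6% ± 0.519 untreated (SD, n = 3 each). The ratio of Pfkfb3 to Pfkfb4 within a library was 2.27, 2.02 and 2.10 with IFN-γ, against 0.777, 0.714 and 0.691 untreated. By this scale Pfkfb3 was the larger in every IFN-γ library and Pfkfb4 in every untreated library, a difference of 1.55 in the mean log2 ratio, or 2.93-fold (exact permutation p = 0.1, 0.16 adjusted). The untreated order rests on the deposited lengths, 6428 bases for Pfkfb3 and 4930 for Pfkfb4: by CPM, with no length, Pfkfb3 averaged 66.1 and Pfkfb4 23.8 with IFN-γ, while Pfkfb3 averaged 27.5 and Pfkfb4 29.0 untreated, and untreated replicate 1 had more counts for Pfkfb3 (913) than for Pfkfb4 (901). Against Pfkfb2 the log2 ratio of Pfkfb3 differed by 1.51 and against Pfkfb1 by 1.25, again without overlap (each exact permutation p = 0.1), while the pairs among Pfkfb1, Pfkfb2 and Pfkfb4 overlapped. The summed PFKFB level was 18.2 ± 0.610 CPM per kilobase with IFN-γ and 13.7 ± 0.893 untreated (SD, n = 3 each), 1.34 times as high (exact permutation p = 0.1).

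**Figure D3:**
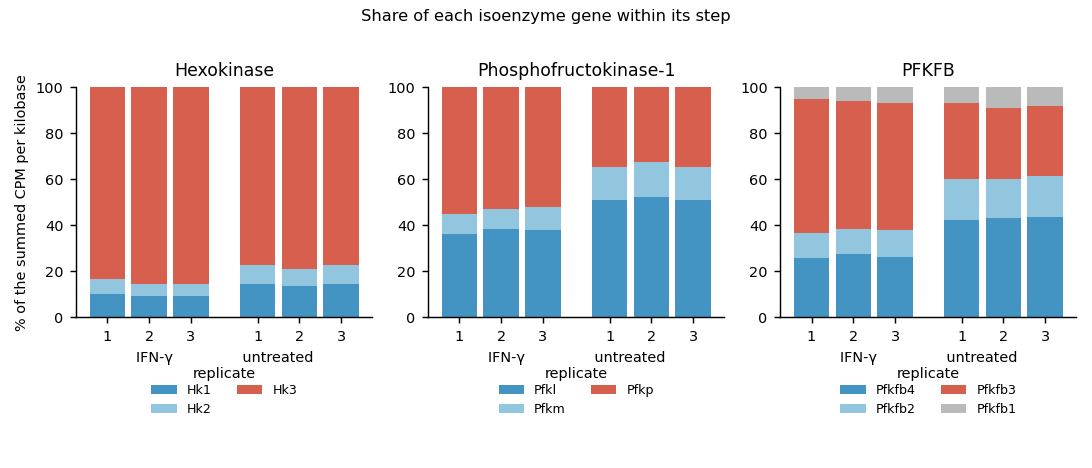
Share of each isoenzyme gene (% of the summed CPM per kilobase of exon, y axis) in each library for hexokinase, PFK-1 and the PFKFB enzymes. Hk3, Pfkp and Pfkfb3 (red) take a larger share in each of the 3 IFN-γ libraries than in any of the 3 untreated libraries.

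Among the members, the enzymes from aldolase to enolase were, apart from Eno2, not called. Eno3, an enolase gene outside the members, was called higher and is given further below. Aldoa, the main aldolase here, averaged 1286 ± 93.1 CPM with IFN-γ and 1239 ± 105 CPM untreated, and Aldoc, the brain type, 26.5 ± 1.16 CPM with IFN-γ and 26.2 ± 0.776 CPM untreated. Tpi1, the triose isomerase, averaged 574 ± 24.7 CPM with IFN-γ and 573 ± 43.8 CPM untreated, and Pgk1, the first ATP-making enzyme of the path, 1131 ± 51.9 CPM with IFN-γ and 1075 ± 16.9 CPM untreated (SD, n = 3 each). The groups of these 4 genes overlapped. Pgam1, the phosphoglycerate mutase, had 268, 274 and 264 CPM with IFN-γ, against 257, 236 and 261 CPM untreated, so its groups did not overlap although its log2 fold change of 0.10 ± 0.06 was not called. Eno1, the common enolase, averaged 807 ± 78.5 CPM with IFN-γ and 756 ± 32.6 CPM untreated (SD, n = 3 each). Over the 20 members not called other than Gapdh, log2 fold changes ran from -0.21 to 0.25 with standard errors of 0.05 to 0.13, and the lack of a call does not show that they did not differ.

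Eno2, the neuronal type of enolase and a minor one here, fell. It had 5.91, 5.44 and 5.22 CPM with IFN-γ, against 7.74, 7.04 and 7.23 CPM untreated. The groups did not overlap, and the log2 fold change was -0.41 ± 0.09 (edgeR adjusted p = 0.00777), a call kept under each of the 17 alternatives to the fit. Within a library, Eno1 was 254, 238 and 241 times Eno2 per kilobase with IFN-γ, against 157, 188 and 174 times untreated (exact permutation p = 0.1, 0.16 adjusted). Of the level of both genes, Eno2 made up 0.406% with IFN-γ and 0.576% untreated. The summed level of Eno1 and Eno2 was 404 ± 39.3 CPM per kilobase with IFN-γ and 379 ± 16.2 untreated, groups that overlapped (SD, n = 3 each; exact permutation p = 0.5).

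Gapdh, the glyceraldehyde-3-phosphate dehydrogenase often used as a reference gene, varied widely among the untreated libraries. It had 4897, 4286 and 3572 counts with IFN-γ and 3867, 3286 and 956 counts untreated, or 151, 139.6 and 115 CPM with IFN-γ, against 129, 111 and 28.3 CPM untreated. Between libraries, untreated replicate 3 alone stood out as low, and the other untreated libraries fell within or just below the range of the IFN-γ libraries. Against other enzymes the gene was low throughout. Its mean of all 6 libraries was 64.7 CPM per kilobase, against 142 for Pgam1, 390.3 for Tpi1 and 604 for Pgk1. The log2 fold change was 0.60 ± 0.45 (edgeR adjusted p = 0.342) with all libraries and 0.16 ± 0.13 (edgeR adjusted p = 0.387) without untreated replicate 3. The highest untreated library was 4.53 times the lowest for Gapdh, against 1.31 times among IFN-γ libraries. Of 9599 genes averaging at least 5 CPM untreated, the median of that untreated ratio was 1.16, 17 genes reached 3 or more, Gapdh ranked 10 and the other tested members at that level reached at most 1.33. Untreated replicate 3 was under 50% of the lower of the other untreated libraries for 3 of those genes, Gapdh, Ppp1ccb and Srp54b, the last 2 chosen after their values were seen. Gapdh has many copies in the genome: 25.1% of its 50-base stretches in GENCODE M21 transcripts also stood in another gene, 223 such genes in all, 213 of them pseudogenes and 5 listed in the tables. How reads from copies were counted is not given in the sources used here, and the part of such reads in the low value of untreated replicate 3, or in the level of the other libraries, was not tested.

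Pkm, the pyruvate kinase that closes glycolysis, had 3272, 3017 and 2968 CPM with IFN-γ, against 2469, 2608 and 2533 CPM untreated. All IFN-γ libraries were higher, and the log2 fold change was 0.28 ± 0.07 (edgeR adjusted p = 0.0114). That call was lost with upper quartile scaling (0.13, edgeR adjusted p = 0.152), with total counts (0.11, edgeR adjusted p = 0.163) and without untreated replicate 3 (0.27, edgeR adjusted p = 0.0593). The tables give 1 value for the gene, so its M1 and M2 splice forms were not separated, and 25.8% of its 50-base stretches also occur in another gene.

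The lactate dehydrogenase genes were not called, while 1 lactate carrier gene rose. Ldha, whose enzyme form favours lactate, had 899, 928 and 934 CPM with IFN-γ, against 906, 992 and 909.6 CPM untreated, overlapping groups with a log2 fold change of -0.02 ± 0.06. Ldhb averaged 6.73 ± 0.669 CPM with IFN-γ and 7.69 ± 1.10 CPM untreated (SD, n = 3 each) and was not called. Ldha made up 97.1% ± 0.235 of the summed level of both per kilobase with IFN-γ and 96.8% ± 0.302 untreated (SD, n = 3 each). Slc16a3, which encodes the lactate exporter MCT4, had 45.1, 45.2 and 43.6 CPM with IFN-γ, against 30.9, 34.9 and 34.7 CPM untreated. Its groups were apart, and it rose by 0.41 ± 0.07 on the log2 scale (edgeR adjusted p = 0.00185). Slc16a1, which encodes the carrier MCT1, had 42.3, 41.8 and 43.4 CPM with IFN-γ, against 40.8, 41.7 and 41.0 CPM untreated, groups that did not overlap by a small margin, and was not called. The log2 ratio of Slc16a3 to Slc16a1 was 0.37 higher with IFN-γ (exact permutation p = 0.1, 0.16 adjusted). Csnk1d, on the other strand, covers 10.3% of the exon bases of Slc16a3 and averaged 4490 counts against 1223 for Slc16a3, and whether counting used strand is not given in the sources used here, so reads of the overlap cannot be assigned.

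Of the 7 pentose phosphate members, 1 rose and 0 fell (14.3% and 0%, against 19.6% and 16.8% of all genes). G6pdx, the entry enzyme and a source of NADPH, averaged 194 ± 15.6 CPM with IFN-γ and 180.2 ± 2.80 CPM untreated, and Pgd, the other NADPH-forming dehydrogenase, 618 ± 31.0 CPM with IFN-γ and 648 ± 20.8 CPM untreated (SD, n = 3 each). Pgls, the lactonase between them, averaged 51.8 ± 3.12 CPM with IFN-γ and 57.6 ± 9.69 CPM untreated (SD, n = 3 each). None of these was called, and their groups overlapped. Rpe, the epimerase that makes xylulose-5-phosphate, had 53.9, 59.3 and 61.4 CPM with IFN-γ, against 46.2, 44.8 and 48.9 CPM untreated. Its groups did not overlap, and its log2 fold change was 0.32 ± 0.07 (edgeR adjusted p = 0.00762), a call lost with upper quartile scaling (0.17, edgeR adjusted p = 0.0707) and total counts (0.15, edgeR adjusted p = 0.137). Kansl1l, on the other strand, covers 17.9% of the exon bases of Rpe and averaged 319.5 counts against 1640 for Rpe. Its own counts were 397, 380 and 368 with IFN-γ, against 311, 176 and 285 untreated. The part of reads from Kansl1l in the rise of Rpe was not tested. Rpia, the isomerase that makes ribose-5-phosphate, had 28.1, 28.3 and 30.6 CPM with IFN-γ, against 22.3, 28.4 and 22.6 CPM untreated. Untreated replicate 2 lay among the IFN-γ libraries, and the log2 fold change of 0.25 ± 0.10 was not called (edgeR adjusted p = 0.0955), but without that library it was 0.37 (edgeR adjusted p = 0.00135). Of the enzymes that return pentoses to glycolysis, Tkt averaged 534 ± 36.5 CPM with IFN-γ and 558 ± 43.6 CPM untreated, and Taldo1 622 ± 27.6 CPM with IFN-γ and 674 ± 73.6 CPM untreated (SD, n = 3 each). Neither was called.

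Levels between genes spanned a wide range. Per kilobase of exon, Pgk1 was the highest member over all 6 libraries at a mean of 604 CPM per kilobase, followed by Aldoa at 522, Taldo1 at 508, Tpi1 at 390.3, Eno1 at 389.8 and Pkm at 366, and Pfkfb1, at 1.09, was the lowest of those tested. Neighbours such as Tpi1 and Eno1 overlapped across libraries, so their order carries no weight. The order also rests on the deposited lengths, 7687 bases for Pkm and 1825 for Pgk1, and by CPM, with no length, Pkm was above Pgk1 in both groups. Hk3 stood at 214, 210 and 204 CPM per kilobase with IFN-γ, against 81.2, 81.6 and 85.1 untreated. Exon sequence shared with other genes limits some of these levels: 11 of the 34 members had at least 10% of their 50-base stretches in another gene, among them Pgk1 (53.9%), Pgam1 (36.2%), Eno1 (26.0%) and Pkm (25.8%), while Hk2, Hk3 and Slc16a3 had 0 and Pfkfb3 0.376%. These shares are of GENCODE M21 transcripts. By the deposited exon coordinates, Csnk1d on the other strand covers 10.3% of the exon bases of Slc16a3, and Unc5a 0.98% of those of Hk3.

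**Figure D4:**
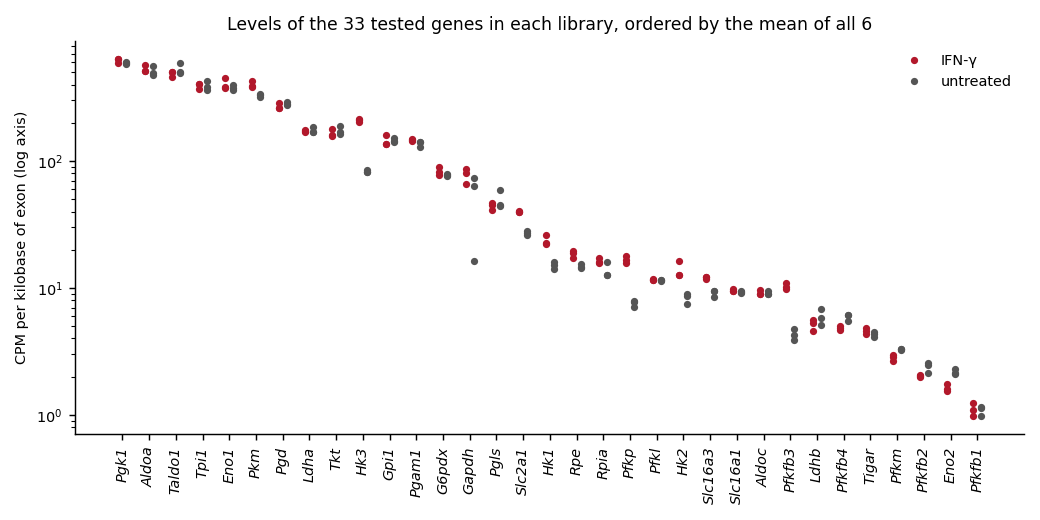
CPM per kilobase of exon (y axis, log scale) of the 33 tested genes in each library, ordered from the highest to the lowest mean of all 6. Hk3, Slc2a1, Hk1, Pfkp and Pfkfb3 show IFN-γ libraries (red) above untreated ones (grey), and 1 untreated library of Gapdh stands apart below the rest.

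Genes of the same pathways outside the members were read from lists chosen for their function. Of 20 further glycolytic and glucose carrier genes, 13 were tested, 3 were called higher and 4 lower (23.1% and 30.8%, against 19.6% and 16.8% of all genes), or 2 lower without IFN-γ replicate 2. Slc2a6, which encodes the sugar carrier GLUT6, had 59.6, 59.3 and 56.2 CPM with IFN-γ, against 10.1, 10.4 and 11.1 CPM untreated. The groups were more than 5 times apart, and its log2 fold change was 2.47 ± 0.07 (edgeR adjusted p = 5.33e-08), larger than that of any member. Other carriers fell: Slc2a3, which encodes GLUT3, averaged 12.7 ± 0.219 CPM with IFN-γ and 18.3 ± 2.26 CPM untreated (log2 fold change -0.52), and Slc2a8, which encodes GLUT8, 11.3 ± 0.0614 CPM with IFN-γ and 14.9 ± 1.70 CPM untreated (-0.41; SD, n = 3 each). Minpp1, an inositol phosphatase that also acts on bisphosphoglycerate, rose by 0.26 ± 0.07, a call lost with total counts (0.09, edgeR adjusted p = 0.257) among others. Eno3, the muscle type of enolase, chosen after its values were seen because it is an isoenzyme of members, averaged 25.5 ± 0.136 CPM with IFN-γ and 21.7 ± 1.38 CPM untreated (SD, n = 3 each; log2 fold change 0.23 ± 0.07, edgeR adjusted p = 0.0300). Adpgk (-0.23 ± 0.05, edgeR adjusted p = 0.0106) and Bpgm (-0.25 ± 0.08, edgeR adjusted p = 0.0338) were called lower. Both were also chosen after their values were seen, and they complete the called genes of the list. Without each IFN-γ library in turn, without untreated replicate 3, and with upper quartile or total count scaling, 1 gene of the list, Slc2a6, was called higher. The isoenzyme genes Hkdc1 and Pklr had 0 counts in all 6 libraries.

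Of 9 further pentose phosphate and ribose phosphate genes, 7 were tested, 0 were called higher and 3 lower (42.9%, against 16.8% of all genes), or 5 lower with upper quartile scaling or total counts. Those scalings called 4097 and 4520 of all 12968 genes lower. Prpsap2, an associated protein of ribose-phosphate synthetase, averaged 27.2 ± 2.22 CPM with IFN-γ and 36.1 ± 1.63 CPM untreated (SD, n = 3 each), and fell by 0.41 on the log2 scale (edgeR adjusted p = 0.00380). H6pd, the dehydrogenase of the endoplasmic reticulum, averaged 64.5 ± 3.11 CPM with IFN-γ and 76.3 ± 5.35 CPM untreated, and Prps2, a ribose-phosphate synthetase, 38.3 ± 0.834 CPM with IFN-γ and 44.6 ± 1.80 CPM untreated (SD, n = 3 each). Both were called lower, but in 4 of the 6 fits without 1 library (those without IFN-γ replicate 2, IFN-γ replicate 3, untreated replicate 1 or untreated replicate 3), Prpsap2 was the 1 gene of the list called lower.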

How the data were processed

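Per the labels' protocols, Trizol RNA went into a KAPA stranded mRNA library kit. HISAT2 and the build mm10 are named in the submitters' processing notes, with no version or role given. Neither the counter, nor whether it used strand, nor how it placed repeated reads is given in the sources used here. Each deposited table gives a count, TPM and FPKM per gene, per the file headers. The counts deposited by the authors were whole numbers, not normalized, and were tested. The TPM and FPKM values deposited by the authors followed from those counts and lengths and were not tested.

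Counts were analysed with edgeR 4.0.16 in R 4.3.3: filterByExpr (minimum count 10, minimum total 15), TMM scaling, and glmQLFit with glmQLFTest, two-sided, p-values being adjusted by Benjamini and Hochberg over 12968 genes and called at 0.05. Other tools were limma 3.58.1, DESeq2 1.42.0, Python 3.11.15 with scipy 1.17.1 and pandas 2.3.3, and matplotlib 3.10.9. Standard errors were derived from the fit, as the absolute log2 fold change over the square root of the quasi-likelihood F statistic. Isoenzyme ratios used counts plus 0.5 over the deposited exon length, within a library. Ratios of 16 pairs (both members averaging at least 10 counts) and totals of 7 steps were compared by exact permutation tests over libraries, two-sided. The fit and the permutation test were tested on simulated data. The members and gene lists were chosen with earlier results of these data known. All 34 members are named or counted. Of each further list, the called genes averaging at least 1 CPM are named, at most the 4 that moved furthest. Called genes named beyond these are said to be chosen after their values were seen. Shared sequence was searched as 50-base stretches of GENCODE M21 transcripts matched by symbol. Exon overlaps come from the coordinates in the tables, which differ from those of GRCm38.p6 and are not printed. Promoter windows are RefSeq's, of GRCm38.p6. Results of a further motif and of some listed genes are not reported here. Replicate pairs all differed beyond sampling noise (chi-square over its degrees of freedom between 2.04 and 80.2), and each library was counted once. Gene-level fits were recomputed with each library left out and with other scalings (total counts, RLE, upper quartile). They were also recomputed with other filters (none, or 5 CPM in 3 libraries) and other tests (limma-voom, DESeq2, the robust fit). Further alternatives were a replicate block, a call at 0.01 and, added after seeing the data, a fit after detrending log counts against exon length. Isoenzyme ratios and step totals were recomputed with each library left out, with 5 counts added and with no length division. Ratios were also recomputed with a replicate block, and totals with total counts. Shares were recomputed only with no length division, and levels, the untreated spread and motif matches were not recomputed.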

Additional observations from a re-analysis of the deposited data

How the results depend on the processing

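Of 560 values of the members under 17 alternatives to the fit, 529 stayed on the same side of the threshold, 16 lost a call and 15 gained one. Of the 560, 41 had the other sign, over 14 members and all on the same, uncalled side of the threshold, 22 of them with upper quartile scaling or total counts (Aldoa was -0.11 with total counts). The calls of Slc2a1, Hk1, Hk2, Hk3, Pfkp, Pfkfb3, Slc16a3 and Eno2 were kept throughout. Members called lower numbered 6 with upper quartile scaling, 10 with total counts and 1 at a threshold of 0.01. Genes called lower over all genes numbered 4097 with upper quartile scaling, 4520 with total counts and 1242 at a threshold of 0.01, and 1666 were called higher with total counts. Without 1 library, members called higher ranged from 8 to 10 and members called lower from 1 to 3, with 1 without IFN-γ replicate 3 or untreated replicate 3. Over all genes those ranges were 1991 to 3174 higher and 1451 to 2793 lower. The choice of scaling thus limits small changes: the median of all genes differed between scalings, and Ldha, Ldhb, Pgls, Pgd, Tkt and Taldo1 were called lower with total counts, between -0.19 and -0.36. Removing the trend on exon length called Pfkm lower and Rpia higher, as -0.19 and 0.29. The cause of these shifts was not tested.

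All 144 values of isoenzyme ratios under alternatives kept their direction, though at 3 against 3 none could pass the threshold. Those with no length division and with the replicate block equal the main value by construction, so only the others are a check. Log2 differences of step totals with no length division were 1.16 for hexokinase and 0.78 for PFK-1. With total counts they were 1.05 for hexokinase, 0.31 for PFK-1, 0.25 for PFKFB, -0.12 for aldolase, -0.0805 for enolase, -0.20 for lactate dehydrogenase and 0.0694 for the lactate carriers; the remaining 54 of 63 values moved by less than the spread between replicates.

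Same-numbered libraries correlated in their deviations from the group means at 0.306, 0.144 and -0.07, so the numbers were not taken as pairs. With the replicate block, 10 members were called higher and 3 lower (2723 and 2327 over all genes), the added member being Gapdh at 0.82 (edgeR adjusted p = 0.0349). IFN-γ replicates 1 and 2 and untreated replicate 1 correlated best with their own number, and the other 3 libraries did not.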

Other observations

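Genes that store and release glucose, and regulators of glycolysis, were read from lists chosen for their function. Of 20 gluconeogenesis and glycogen genes, 17 were tested, 2 were called higher and 5 lower (11.8% and 29.4%, against 19.6% and 16.8% of all genes), and 10 were called lower with upper quartile scaling and 10 with total counts. Those scalings called 4097 and 4520 of all 12968 genes lower. Pgm2l1, which makes glucose bisphosphate, a cofactor of phosphoglucomutase, had 18.0, 17.4 and 17.6 CPM with IFN-γ, against 39.9, 33.4 and 40.4 CPM untreated. Its groups were far apart, and it fell by 1.10 on the log2 scale (edgeR adjusted p = 2.61e-05). Pck2, the mitochondrial PEP carboxykinase, averaged 23.1 ± 1.31 CPM with IFN-γ and 34.9 ± 2.98 CPM untreated (SD, n = 3 each), and fell by 0.60 (edgeR adjusted p = 0.000757). Gyg, the primer of glycogen synthesis, averaged 132 ± 3.23 CPM with IFN-γ and 80.8 ± 4.61 CPM untreated, and Slc37a1, a glucose-6-phosphate carrier, 5.94 ± 0.181 CPM with IFN-γ and 3.53 ± 0.711 CPM untreated (SD, n = 3 each). Gyg rose by 0.71 ± 0.06 (edgeR adjusted p = 4.42e-05) and Slc37a1 by 0.75 ± 0.14 (edgeR adjusted p = 0.00370). The liver genes G6pc and Pck1 had 0 counts in all 6 libraries.

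Of 24 regulators, 22 were tested, 7 were called higher and 6 lower (31.8% and 27.3%, against 19.6% and 16.8% of all genes), or 5 higher and 8 lower with upper quartile scaling or total counts. Of all 12968 genes, those scalings called 1803 and 1666 higher and 4097 and 4520 lower. Without IFN-γ replicate 2 or without IFN-γ replicate 3, 2 were called lower. Hif1a, the hypoxia-inducible factor that many glycolytic genes respond to, had 229.6, 223 and 229.8 CPM with IFN-γ, against 123, 110.1 and 123 CPM untreated. Every IFN-γ library was well above every untreated one, and the log2 fold change was 0.94 ± 0.06 (edgeR adjusted p = 1.02e-05). Egln3, an oxygen-dependent hydroxylase of HIF and itself a HIF target, averaged 1.84 ± 0.323 CPM with IFN-γ and 2.82 ± 0.131 CPM untreated (SD, n = 3 each). It fell by 0.61 (edgeR adjusted p = 0.0137), a call lost without IFN-γ replicate 2 (edgeR adjusted p = 0.0535) or IFN-γ replicate 3 (edgeR adjusted p = 0.0531). Arrdc4, an arrestin-domain protein that lowers glucose uptake, averaged 20.8 ± 1.30 CPM with IFN-γ and 12.6 ± 0.702 CPM untreated, and Pdk2, a pyruvate dehydrogenase kinase, 3.47 ± 0.382 CPM with IFN-γ and 5.28 ± 0.609 CPM untreated (SD, n = 3 each). The log2 fold change of Arrdc4 was 0.72 ± 0.08 (edgeR adjusted p = 0.000203) and that of Pdk2 -0.61 ± 0.13 (edgeR adjusted p = 0.00673). The isoenzyme genes Pdk3 and Pdk1, chosen after their values were seen, had higher levels than Pdk2 and moved in opposite directions. Pdk3 averaged 23.1 CPM with IFN-γ and 17.3 CPM untreated (0.42 ± 0.07, edgeR adjusted p = 0.00221). Pdk1 averaged 55.3 CPM with IFN-γ and 64.0 CPM untreated (-0.21 ± 0.06, edgeR adjusted p = 0.0310).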
